A study of Mus musculus with 20 samples.

Results

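A set of 9 genes that mark neurons of the autonomic nervous system or neurons that make nitric oxide was examined in embryonic dorsal root ganglia (DRG), the sensory ganglia beside the spinal cord: *Phox2a*, *Hand2*, *Gata3*, *Th*, *Dbh*, *Chat*, *Slc18a3*, *Vip* and *Nos1*. They form a list of names, genes of sympathetic, parasympathetic and nitrergic neurons, and no measured value entered the rule, although the list was drawn up with earlier results of these data known. Of these 9 genes, 8 were matched by symbol to an Ensembl identifier among the 37620 genes of the expression table, and *Slc18a3* was not analysed here. The study set out to describe the pelvic visceral sensory neurons, which lie in the more caudal of the ganglia compared. RNA was sequenced from whole ganglia of C57Bl6 mouse embryos at E18.5, late in gestation, with no sorting of cells and no treatment. The ganglia at L4-5 are called lumbar and those at L6-S1 sacral. From 5 male and 5 female embryos 1 library of each level was made, so 20 libraries formed 4 groups of 5 and each sacral library had a lumbar partner from the same animal.

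Sympathetic neurons make noradrenaline from tyrosine by way of tyrosine hydroxylase (*Th*) and dopamine β-hydroxylase (*Dbh*), and take it back up through the transporter *Slc6a2*. Parasympathetic neurons make acetylcholine with choline acetyltransferase (*Chat*), load it into vesicles through *Slc18a3*, and many also hold vasoactive intestinal peptide (*Vip*) or neuronal nitric oxide synthase (*Nos1*). The homeodomain factor *Phox2a* acts in the precursors of these neurons, and *Hand2* and *Gata3* in the sympathetic branch. In the pelvis the ganglia of both kinds lie close to the sacral nerves, and the sympathetic chain runs beside the DRG. Several of these genes are not exclusive to autonomic neurons: *Th* also marks unmyelinated low-threshold mechanoreceptors of the DRG, and *Nos1* and *Vip* are known from sensory neurons as well.

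Expression is given as RPKM, reads scaled to the exon length of the gene and by 1 factor per library, or as the reads themselves. These were recovered from the log2 RPKM values. The median log2 RPKM, as deposited, was 0.930 in every library, so the factor does not follow the total of reads alone. The libraries held between 19422382 and 39306050 reads. The skeletal muscle markers, 9 genes, summed to between 23.7 and 484 RPKM, and 3 libraries stood above the others: the lumbar library of donor F8 at 484 RPKM, the sacral library of M7 at 240 RPKM and the lumbar library of F3 at 223 RPKM. Values without these 3 donors are therefore given beside the main results. The 8 sensory neuron markers, among them *Prph*, *Avil* and *Scn10a*, summed to between 251 and 606 RPKM in lumbar libraries and between 132 and 504 RPKM in sacral libraries, so the labelled tissue held its defining genes in all 20. That sum was higher in the sacral library in 3 of 10 donors. In whole ganglia, fewer cells of a type and less RNA per cell cannot be told apart.

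The genes fell into a well-expressed pair and a near-silent remainder. *Th* led with a mean of 5.34 ± 2.15 RPKM (SD, n = 20 libraries), above 79.1% of the 29049 genes with a value. *Nos1* followed at 2.05 ± 0.73 RPKM, above 62.7% of genes, and the order of these neighbours held in 19 of 20 libraries. *Vip* reached 0.378 ± 0.290 RPKM and was below *Nos1* in all 20. *Dbh* came next at 0.104 ± 0.099 RPKM and was below *Vip* in 17 of 20 libraries. The order of the others was not separable from the spread between libraries: *Dbh* exceeded *Phox2a* (0.0604 ± 0.0600 RPKM) in 13 of 20 libraries, *Phox2a* exceeded *Gata3* (0.0593 ± 0.0571 RPKM) in 9, and *Gata3* exceeded *Hand2* (0.0241 ± 0.0401 RPKM) in 13. *Chat* was lowest at 0.00541 ± 0.01558 RPKM, above 4.2% of genes with a value, and *Hand2* and *Chat* were equal, at 0 reads, in 10 libraries. A gene with 0 reads in a library could still have up to 3 at 95% confidence, which for *Chat* is 0.0258 to 0.0651 RPKM depending on the scale factor of the library. This limit and the intervals below cover counting error only, since the amplified libraries carry no molecular identifiers.

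Between the sacral and lumbar ganglia, none of the member genes passed the threshold, an adjusted p of 0.05 by limma over all genes tested. The study itself used voom on raw counts with donor blocking, at the same threshold. It listed *Nos1* among the genes higher in the lumbar ganglia of the embryos. A mean of 1 RPKM in at least 1 group was required for the limma test here, and *Th* and *Nos1* met it. Of the 15212 genes tested, 966 passed (6.35%), 386 of them higher in sacral ganglia (2.54%) and 580 lower (3.81%). Of the 2 genes tested, 0 passed by limma and 1, *Nos1*, had an unadjusted p under 0.05, and 0 passed by limma with voom on the recovered reads. The 6 genes below 1 RPKM were taken from a fit to all 29049 genes with a value, of which 507 passed (1.75%). In that fit 0 of the 8 genes passed and 4 (*Gata3*, *Dbh*, *Vip* and *Nos1*) had an unadjusted p under 0.05. An exact sign-flip permutation test over the 10 donors gave an unadjusted p under 0.05 for 3 of the 8 (*Dbh*, *Vip* and *Nos1*) and passed 0 of all genes after adjustment (0%).

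**Figure D1:**
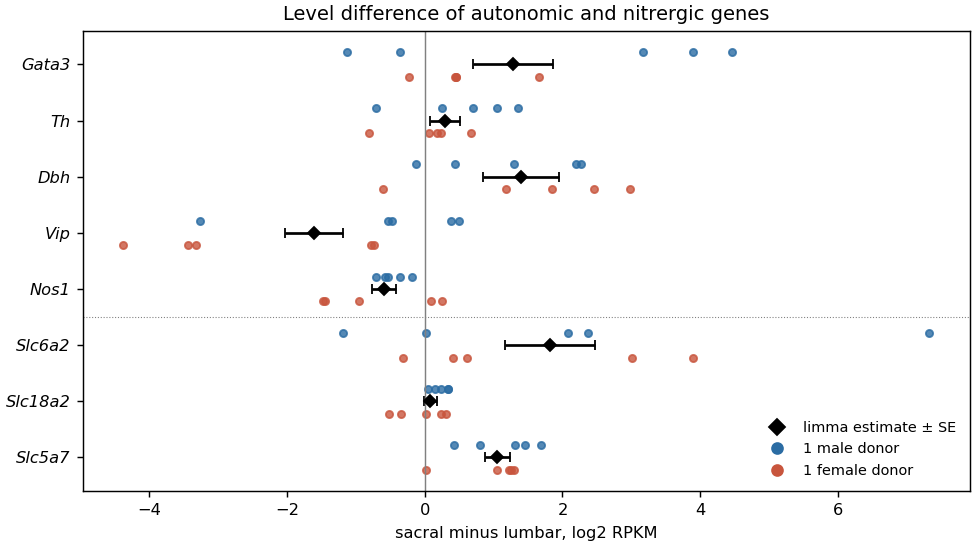
Level difference, sacral minus lumbar, in log2 RPKM for 5 of the 9 genes and, under the dotted line, 3 defining genes of autonomic neurons. Diamonds with bars are limma estimates ± SE, and small points are the 10 donors, males above and females below each estimate. *Slc5a7* is right of 0 in 10 of 10 donors, *Nos1* is left of 0 in 8, and the points of *Gata3*, *Dbh*, *Vip* and *Slc6a2* spread over several log2 units.

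The 3 transcription factors were at the edge of detection. *Phox2a* (ENSMUSG00000007946, chromosome 7, 108966827 to 108971680 in mm9), which drives the noradrenergic programme, had 1, 2, 1, 6 and 1 reads in the lumbar and 0, 3, 5, 0 and 9 in the sacral libraries of males M1, M3, M5, M7 and M8. In females F3, F7, F8, F9 and F10 it had 11, 2, 0, 4 and 3 lumbar and 16, 4, 4, 1 and 0 sacral reads. Both libraries of F3 were the highest of their level, and the levels overlapped. In all, 42 of its 73 reads came from sacral libraries, 57.5% with a 95% Clopper-Pearson interval of 45.4% to 69.0%, where 47.0% of all reads were sacral. *Phox2a* overlaps *Inppl1* on the opposite strand, and the strand of the reads was not stated to have been used, so part of these reads could belong to that gene.

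*Hand2* (ENSMUSG00000038193, chromosome 8, 59799780 to 59803314), a basic helix-loop-helix factor of sympathetic neurons, had 0 reads in 11 of 20 libraries. Its highest value was 8 reads, in the lumbar library of M1, followed by 7 in the sacral library of F9 and 6 in that of F3. Sacral libraries held 22 of its 32 reads, or 68.8% (49.99% to 83.9%), a share that was 90.9% without donor M1. With *Phox2a* and *Hand2* at 3 reads or fewer in 12 and 16 libraries, no fold change is given for either.

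*Gata3* (ENSMUSG00000015619, chromosome 2, 9778705 to 9811661), a zinc-finger factor needed for noradrenergic identity, had 2, 0, 0, 4 and 2 lumbar and 1, 12, 9, 3 and 15 sacral reads in the males. In the females it had 1, 10, 11, 6 and 5 lumbar and 1, 13, 22, 6 and 6 sacral reads. The sacral libraries ran higher as a group but overlapped the lumbar ones, and 7 of 10 donors were higher in log2 RPKM. Sacral libraries held 88 of 129 reads, 68.2% (59.4% to 76.1%). The limma difference was 1.28 ± 0.58 (SE) in log2 RPKM, with an adjusted p of 0.301, and 1.53 ± 0.58 (adjusted p = 0.173) without F3, F8 and M7. This difference depends on the 0.5 reads set for the 2 empty lumbar libraries, and 3 other annotated genes overlap the *Gata3* locus.

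**Figure D2:**
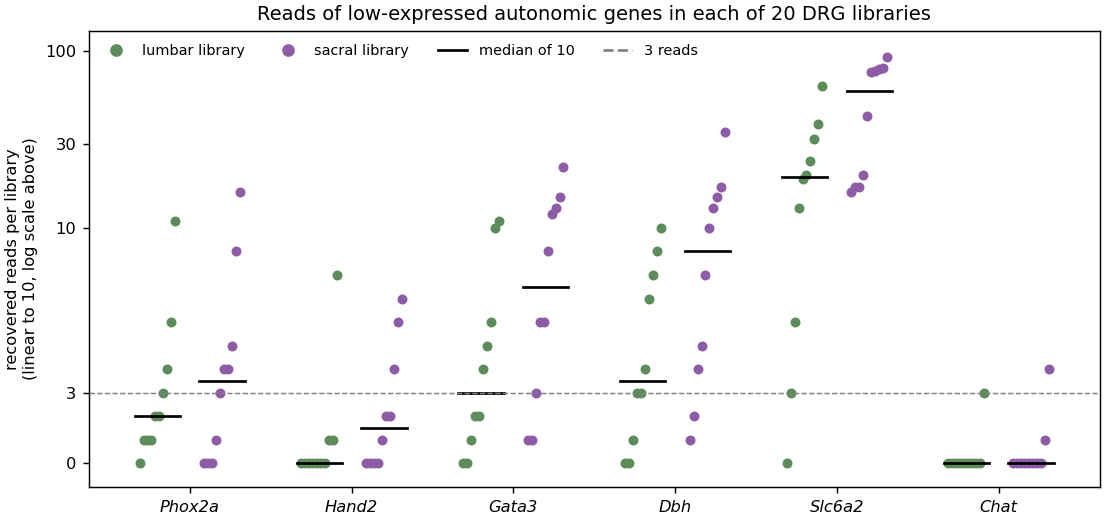
Recovered reads per library of *Phox2a*, *Hand2*, *Gata3*, *Dbh*, *Slc6a2* and *Chat*, on an axis linear to 10 reads and logarithmic above. Each point is 1 library, bars are medians of 10, and the dashed line is at 3 reads. *Chat* lies at 0 in 17 of 20 libraries, and only *Slc6a2* exceeds 35 reads.

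No library had *Phox2a*, *Hand2*, *Gata3* and *Dbh* all above 3 reads (0 of 20). *Dbh* and *Slc6a2* were both above 3 reads in 12 of 20. *Hand2* alone was above 3 reads in only 4 libraries, and *Slc6a2* in all but the lumbar libraries of M1 and M7. Both joint counts therefore follow largely from single genes and cannot show whether the genes occur together.

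The catecholamine genes differed from each other by more than an order of magnitude. *Th* (ENSMUSG00000000214, chromosome 7, 150078657 to 150117033), the rate-limiting enzyme, was read 69 to 797 times per library. *Dbh* (ENSMUSG00000000889, chromosome 2, 27020753 to 27038720), which turns dopamine into noradrenaline, was read 0 to 35 times. The ratio of their mean RPKM was 51.6, and in the library where *Th* exceeded *Dbh* least it was 8.73. Their promoter windows, from 250 bases before to 50 after the start site (RefSeq, GRCm38.p6), are shown with that of *Vip* because the cAMP response element, TGACGTCA, lies in 1 of the 9 windows, that of *Th*, and the shorter motif TGACG in 7. In all 32851 mouse promoters the element was found in 1.79% and TGACG, on either strand and counted also inside the full element, in 20.81%. Capitals mark the element in *Th* and TGACG or its reverse complement CGTCA in the others. The windows are chr7:142899946-142900245 on the minus strand for *Th*, chr2:27165257-27165556 on the plus strand for *Dbh* and chr10:5638968-5639267 on the plus strand for *Vip*.
Th: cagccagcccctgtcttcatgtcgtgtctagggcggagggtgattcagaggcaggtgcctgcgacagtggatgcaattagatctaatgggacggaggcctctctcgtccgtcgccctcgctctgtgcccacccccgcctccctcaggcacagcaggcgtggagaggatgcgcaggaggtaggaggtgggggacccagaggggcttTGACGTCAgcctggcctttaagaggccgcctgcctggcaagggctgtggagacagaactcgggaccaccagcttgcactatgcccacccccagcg
Dbh: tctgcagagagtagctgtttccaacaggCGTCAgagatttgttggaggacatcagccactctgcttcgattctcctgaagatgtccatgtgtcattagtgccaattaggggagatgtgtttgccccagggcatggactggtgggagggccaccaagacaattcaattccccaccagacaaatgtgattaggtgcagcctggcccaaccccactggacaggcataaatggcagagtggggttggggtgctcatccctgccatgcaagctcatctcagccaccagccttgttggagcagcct
Vip: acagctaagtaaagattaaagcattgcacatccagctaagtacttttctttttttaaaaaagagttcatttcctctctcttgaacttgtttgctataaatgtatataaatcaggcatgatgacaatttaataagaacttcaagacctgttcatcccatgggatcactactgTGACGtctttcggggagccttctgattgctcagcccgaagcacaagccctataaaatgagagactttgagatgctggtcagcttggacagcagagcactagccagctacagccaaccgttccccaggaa
The element in *Th* begins 45 bases before the start site, the motif in *Vip* 79 bases before it and that in *Dbh* 222 bases before it. The other windows with TGACG were those of *Hand2*, *Chat*, *Slc18a3* and *Nos1*, and a match describes the letters only.

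*Th* in lumbar libraries ranged from 1.78 to 7.11 RPKM with a median of 5.08, and in sacral libraries from 1.94 to 9.99 RPKM with a median of 5.86. The highest was the sacral library of M7, 1 of the 3 donors with high muscle genes, and the lowest was the lumbar library of M5. The levels overlapped, and the sacral libraries of M7, M3 and F3 lay above the highest lumbar value. Of the donors, 8 of 10 were higher in sacral ganglia, the exceptions being M8, from 7.11 to 4.33 RPKM, and F7, from 3.39 to 1.94 RPKM. At least 8 donors were higher for 11.9% of all genes tested. The limma difference was 0.30 ± 0.21 in log2 RPKM (adjusted p = 0.412, from 0.187 to 0.817 over 24 alternatives) and 0.09 ± 0.25 without F3, F8 and M7 (adjusted p = 0.817).

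*Dbh* had 3, 7, 9, 10 and 1 lumbar and 8, 35, 10, 13 and 4 sacral reads in M1, M3, M5, M7 and M8. In F3, F7, F8, F9 and F10 it had 4, 8, 3, 0 and 0 lumbar and 17, 5, 15, 2 and 1 sacral reads. Its highest library, the sacral one of M3, also had the most *Slc6a2* reads, 93. In RPKM, *Dbh* was higher in sacral ganglia in 8 of 10 donors, and the levels overlapped. At least 8 donors were higher for 11.9% of the genes above 1 RPKM, a set without *Dbh* and *Slc6a2*. Sacral libraries held 110 of 155 reads, 71.0% (63.1% to 78.0%), and 66.4% without M3. The limma difference was 1.39 ± 0.55 (adjusted p = 0.222, from 0.114 to 0.495 over 22 alternatives) and 1.21 ± 0.65 without the 3 donors of high muscle genes (adjusted p = 0.327).

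The noradrenaline transporter *Slc6a2* ran alongside, with 0 to 64 reads in lumbar and 16 to 93 in sacral libraries and 8 of 10 donors higher in sacral ganglia. Its difference of 1.82 ± 0.65 did not pass either (adjusted p = 0.168), and 1 donor, M7, went from 0 to 77 reads. Without M7 it was 1.17 ± 0.52 (adjusted p = 0.319), and without F3, F8 and M7 1.63 ± 0.59 (adjusted p = 0.160). The vesicular monoamine transporters are shared by all monoamine neurons. *Slc18a2*, the neuronal form, held 3.50 ± 0.54 RPKM in lumbar and 3.74 ± 0.77 RPKM in sacral ganglia (difference 0.08 ± 0.09, adjusted p = 0.608). *Slc18a1*, the form typical of endocrine cells, was lower in the sacral library in 9 of 10 donors, at 0.154 ± 0.056 against 0.0772 ± 0.0887 RPKM (difference -1.70 ± 0.55, adjusted p = 0.121). It passed without donor F9 (-2.11 ± 0.50, adjusted p = 0.0447), and not in the other alternatives: it was -1.16 ± 0.40 without F3 (adjusted p = 0.178), whose sacral library had 0 reads, and -1.25 ± 0.48 without F3, F8 and M7 (adjusted p = 0.176).

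Of the cholinergic members only *Chat* was measured, and it was barely read. *Chat* (ENSMUSG00000021919, chromosome 14, 33221389 to 33279095) had 0 reads in 17 of 20 libraries, and the others were the lumbar library of M3 with 3 reads, its sacral library with 1 and the sacral library of F7 with 4. Its total of 8 reads allows no comparison of levels. *Slc18a3*, the vesicular acetylcholine transporter, lies inside *Chat*: its RefSeq promoter window was found at 1 place in mm9, with the start site at 33278036 on chromosome 14, in the intron between the *Chat* exons at 33278993 to 33279095 and 33273911 to 33274099. No annotated exon of the gene models used here covers that start site.

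*Slc5a7*, the high-affinity choline transporter that supplies *Chat* with its substrate, was by contrast well read, with 83 to 703 reads per library. It ranged from 0.778 to 2.34 RPKM with a median of 1.21 in lumbar and from 1.01 to 4.93 RPKM with a median of 2.80 in sacral libraries. Every donor was higher in sacral ganglia (10 of 10), F7 by the least, 0.017 on the log2 scale. All donors were higher for 0.894% of genes tested. The limma difference was 1.05 ± 0.18 (adjusted p = 0.00224), it passed in each of 10 fits that left out 1 donor, and it was 0.89 ± 0.21 without F3, F8 and M7 (adjusted p = 0.0165). The exact sign-flip permutation test over donors gave the smallest p that 10 donors allow, 0.00195, and an adjusted p of 0.0702 over the genes past 1 RPKM.

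**Figure D3:**
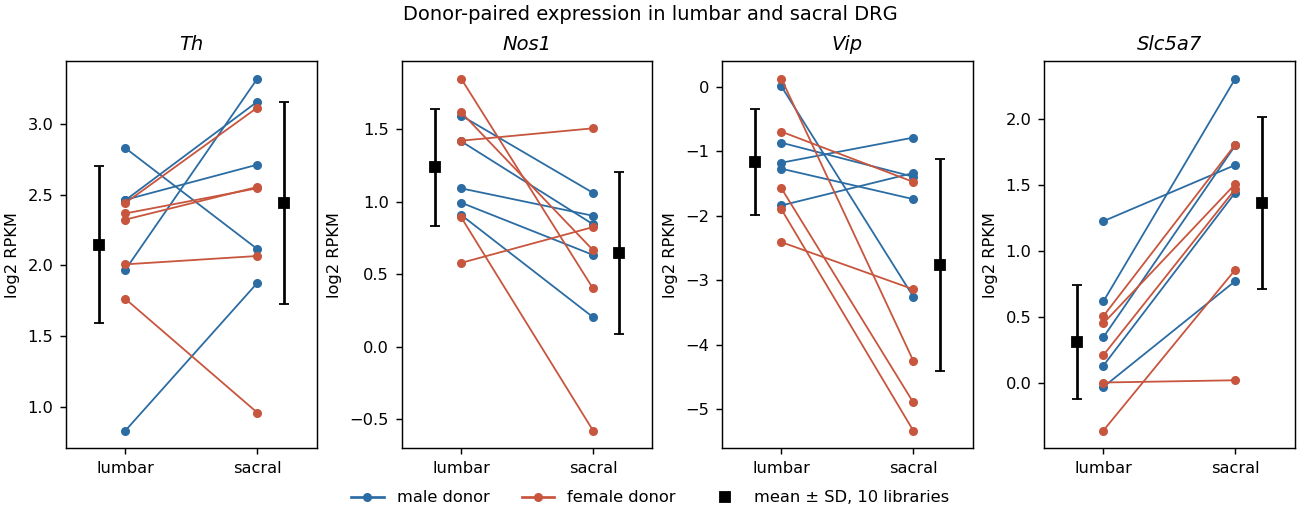
log2 RPKM of *Th*, *Nos1*, *Vip* and *Slc5a7* in the lumbar and sacral ganglia of each donor. Lines join the libraries of 1 embryo, colours give its sex, and black squares with bars are means ± SD of 10 libraries. *Slc5a7* lines rise in 10 of 10 donors, *Nos1* lines fall in 8, and *Vip* lines fall in all 5 females and in 3 of 5 males.

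*Vip* (ENSMUSG00000019772, chromosome 10, 4698927 to 4707323), a peptide of parasympathetic and of some sensory neurons, had between 1 and 47 reads. In females it held 0.337, 0.189, 0.269, 0.619 and 1.09 RPKM in the lumbar libraries of F3, F7, F8, F9 and F10. Their sacral libraries held 0.0337, 0.114, 0.0248, 0.361 and 0.0527 RPKM. All 5 females were lower in sacral ganglia, and only the sacral value of F9 lay inside the lumbar range.

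In males *Vip* held 1.01, 0.415, 0.280, 0.549 and 0.443 RPKM in the lumbar libraries of M1, M3, M5, M7 and M8 and 0.105, 0.300, 0.397, 0.381 and 0.580 RPKM in the sacral ones. Here 3 of 5 were lower in sacral ganglia, and M5 and M8 were higher. Over both sexes the difference was -1.60 ± 0.42 in log2 RPKM (adjusted p = 0.0591, from 0.0197 to 0.221 over 22 alternatives), with 8 of 10 donors lower. It was past the threshold without F9 (-1.82 ± 0.40, adjusted p = 0.0322), and it was -1.34 ± 0.52 without F3, F8 and M7 (adjusted p = 0.180). The reads behind it were few: 238 in lumbar and 96 in sacral libraries, 28.7% sacral (23.9% to 33.9%). At least 8 donors were lower for 16.9% of the genes above 1 RPKM, a set without *Vip*.

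The *Vip* difference was -2.53 ± 0.60 in females (adjusted p = 0.0935) and -0.67 ± 0.60 in males (adjusted p = 0.856), where 0.165% and 0.172% of all genes with a value passed. Tested directly, the sexes differed by -1.85 ± 0.85, with an unadjusted p of 0.0406 and an adjusted p of 0.988. No gene passed for this interaction (0%) by limma, and of the 15212 above 1 RPKM 495 had an unadjusted p under 0.05. Female against male sacral *Vip* differed by -2.12 ± 0.69 (adjusted p = 0.246, with 0.324% of genes past the threshold), and the values overlapped.

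*Nos1* (ENSMUSG00000029361, chromosome 5, 118231041 to 118408849), the enzyme that makes nitric oxide in neurons, was read 168 to 1364 times per library. It ranged from 1.49 to 3.60 RPKM with a median of 2.40 in lumbar and from 0.671 to 2.84 RPKM with a median of 1.68 in sacral libraries. The ranges overlapped, the highest being the lumbar library of F9 and the lowest the sacral library of F7. In 8 of 10 donors it was lower in sacral ganglia, and F3, from 2.68 to 2.84 RPKM, and F8, from 1.49 to 1.77 RPKM, went the other way. At least 8 donors were lower for 16.9% of all genes tested.

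The *Nos1* difference was -0.59 ± 0.18 in log2 RPKM (adjusted p = 0.0537, from 0.00348 to 0.205 over 24 alternatives). Its 2 exceptions were donors whose lumbar library was high in muscle genes. Without F3 it was -0.69 ± 0.18 (adjusted p = 0.0416), without F8 -0.71 ± 0.17 (adjusted p = 0.0141), and without F3, F8 and M7 -0.91 ± 0.16 (adjusted p = 0.00348). These 3 are also the donors with the smallest fall, at 0.09, 0.25 and -0.19 on the log2 scale, so leaving them out had to enlarge the difference. It shrank without F7 (-0.49 ± 0.17, adjusted p = 0.108) or without F9 (-0.50 ± 0.19, adjusted p = 0.133), the donors that fell furthest. The part of muscle RNA in this was not tested. The estimate was -0.71 ± 0.25 in females (adjusted p = 0.174) and -0.47 ± 0.25 in males (adjusted p = 0.495), and the interaction was -0.23 ± 0.36 (adjusted p = 0.996). Of all genes tested, 117 passed in females (0.769%) and 67 in males (0.44%).

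Between the sexes within a level, 0 of the 2 genes tested passed by limma, and 0 had an unadjusted p under 0.05. Of all genes, 46 passed in lumbar (0.302%) and 138 in sacral ganglia (0.907%). *Th* differed by 0.07 ± 0.37 (female minus male, log2 RPKM) in lumbar and -0.39 ± 0.37 in sacral ganglia, with adjusted p of 0.985 and 0.631. *Nos1* differed by 0.07 ± 0.31 and -0.16 ± 0.31, with adjusted p of 0.981 and 0.821. The level difference of *Th* was 0.52 ± 0.30 in males (adjusted p = 0.536) and 0.07 ± 0.30 in females (adjusted p = 0.922), and the interaction was -0.46 ± 0.43 (adjusted p = 0.996).

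*Th* and *Nos1* followed the sensory neuron markers from library to library. Within the 10 sacral libraries, the log2 RPKM of *Th* and that of the summed sensory markers had Pearson's r = 0.94 and Spearman's rho = 0.85 (permutation p = 0.00018 and 0.00298, adjusted over 12 relations 0.00108 and 0.0179). Within the 10 lumbar libraries r was 0.83 and rho 0.75 (permutation p = 0.00096 and 0.0177, adjusted 0.00312 and 0.0303). Leaving out the 2 libraries farthest from the median of the sensory sum gave r = 0.87 and 0.80.

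For *Nos1* the values were r = 0.95 and rho = 0.83 in sacral (permutation p = 0.00016 and 0.00473, adjusted 0.00108 and 0.0189) and r = 0.80 and rho = 0.77 in lumbar libraries (permutation p = 0.0039 and 0.0127, adjusted 0.00936 and 0.0303). Without the 2 outermost libraries r was 0.81 and 0.67. Against the summed autonomic ganglion markers, 9 genes of which *Slc18a2* and *Slc5a7* made up most of the sum, *Th* had r = 0.58 and rho = 0.75 in sacral libraries (permutation p = 0.0789 and 0.017, adjusted 0.105 and 0.0303) and r = 0.29 and rho = 0.39 in lumbar libraries (permutation p = 0.423 and 0.265, adjusted 0.461 and 0.289). Over all 20 libraries *Th* had r = 0.72 with *Slc5a7* alone and 0.52 with *Slc18a2* alone. The rank correlation of sacral *Th* with the autonomic sum equalled that of lumbar *Th* with the sensory sum. *Nos1* had r = 0.26 and rho = 0.47 in sacral libraries (permutation p = 0.472 and 0.178) and r = -0.35 and rho = -0.35 in lumbar libraries (permutation p = 0.317 and 0.330). Without the 2 outermost libraries, r with the autonomic sum was 0.58 in sacral and 0.59 in lumbar libraries for *Th* and 0.31 and 0.18 for *Nos1*. All values of a library share its depth and scaling, and these relations were chosen after the data were seen.

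The share of reads from mitochondrial rRNA, a sign of library quality, moved with the sensory sum and with both genes. It ran from 20.8% to 61.4% in lumbar and from 18.1% to 49.9% in sacral libraries and was higher in the sacral library in 3 of 10 donors. Against this share the log2 sensory sum had r = -0.96 and rho = -0.87 in lumbar libraries (permutation p = 0.0001 and 0.00207, adjusted over 6 relations 0.0003 and 0.0031) and r = -0.77 and rho = -0.89 in sacral libraries (permutation p = 0.00391 and 0.00111, adjusted 0.00598 and 0.0031). *Th* had r = -0.93 and rho = -0.90 in lumbar libraries (permutation p = 9e-05 and 0.00093, adjusted 0.0003 and 0.0031) and r = -0.79 and rho = -0.81 in sacral libraries (permutation p = 0.00562 and 0.00723, adjusted 0.00674 and 0.00868). *Nos1* had r = -0.72 and rho = -0.70 in lumbar libraries (permutation p = 0.0173 and 0.0306, both unchanged by the adjustment) and r = -0.79 and rho = -0.87 in sacral libraries (permutation p = 0.00399 and 0.00197, adjusted 0.00598 and 0.0031). Libraries with a larger mitochondrial share thus had less of the sensory markers, of *Th* and of *Nos1*, and r stayed between -0.64 and -0.95 without the 2 outermost libraries. With the share as a covariate the level difference was 0.32 ± 0.15 for *Th* (adjusted p = 0.187) and -0.57 ± 0.15 for *Nos1* (adjusted p = 0.0304), the latter past the threshold. The part of this share in the relations with the marker sums was not tested.

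Relative to the sensory sum of the same library, *Th* was 0.65 ± 0.51 (SD, n = 10 donors) higher in sacral ganglia on the log2 scale, with 8 of 10 donors higher (exact sign-flip permutation p = 0.0117, adjusted over 4 ratios 0.0234). *Nos1* differed by -0.23 ± 0.35, with 7 of 10 donors lower (exact permutation p = 0.0684, adjusted 0.0911), and *Vip* by -1.24 ± 1.91, also with 7 of 10 lower (exact permutation p = 0.0957, adjusted 0.0957). *Slc5a7* was 1.41 ± 0.41 higher, in 10 of 10 donors (exact permutation p = 0.00195, adjusted 0.00781). The sensory sum was higher in the sacral library in only 3 donors, and it moves each mean ratio upward by the same amount. Without the ratio, the level differences were 0.30 for *Th* (limma adjusted p = 0.412), -0.59 for *Nos1*, -1.60 for *Vip* and 1.05 for *Slc5a7*. Part of the *Th* ratio difference is therefore the lower sacral sum. Ratios were taken for these 4 genes only, so no share over all genes is given. They were not among the planned tests, and their adjustment covers only these 4.

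**Figure D4:**
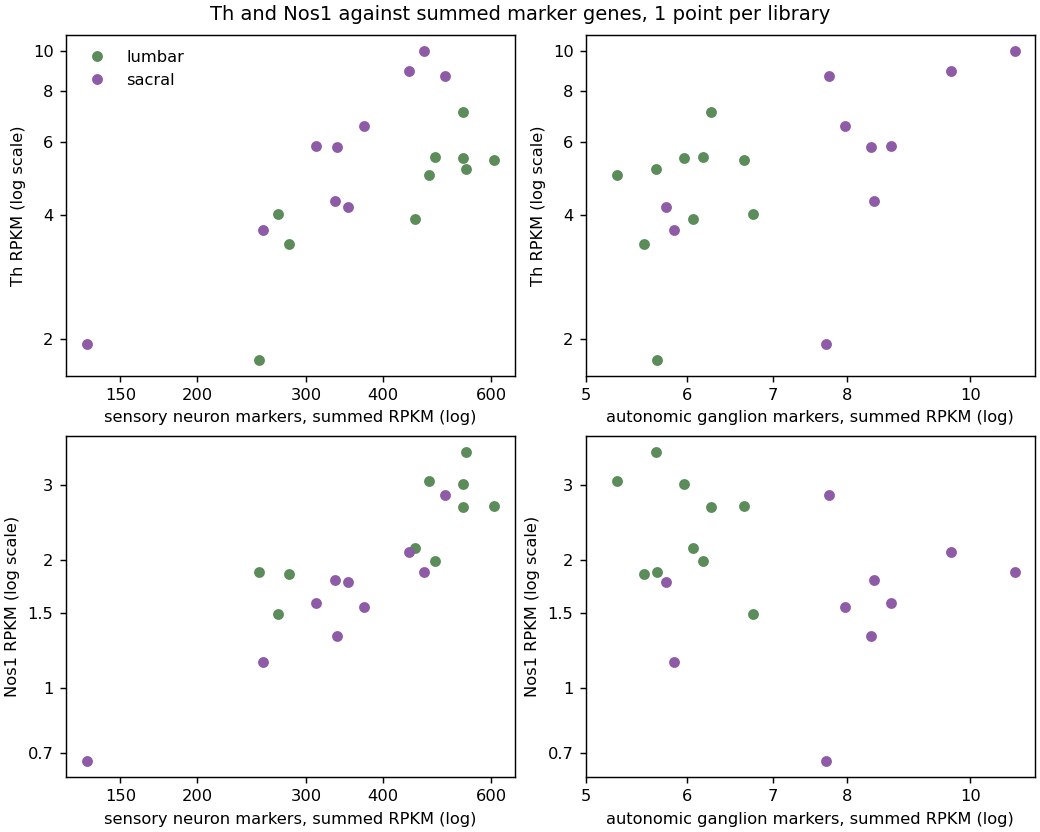
RPKM of *Th* (top) and *Nos1* (bottom) against the summed RPKM of 8 sensory neuron markers (left) and 9 autonomic ganglion markers (right), both axes on a log scale. Each point is 1 library, coloured by level. *Slc18a2* and *Slc5a7* make up most of the autonomic sum. Within each level *Th* and *Nos1* rise with the sensory sum (r from 0.80 to 0.95). With the autonomic sum, sacral and lumbar r are 0.58 and 0.29 for *Th* (rho 0.75 and 0.39) and 0.26 and -0.35 for *Nos1*.

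The 4 markers of unmyelinated low-threshold mechanoreceptors, the sensory neurons in which *Th* is best known, summed to between 16.3 and 60.5 RPKM and were higher in the sacral library in 3 of 10 donors. *Th* had r = 0.89 with this sum in sacral and 0.76 in lumbar libraries (permutation p = 0.00104 and 0.00707), and 0.61 and 0.65 without the 2 outermost libraries. For *Nos1* r with the same sum was 0.82 in sacral and 0.69 in lumbar libraries (permutation p = 0.00618 and 0.0324). Without the 2 outermost libraries it was 0.28 and 0.62. A positive r with this sum was thus not particular to *Th*. The adrenal chromaffin list, *Pnmt*, *Chga* and *Chgb*, summed to between 11.5 and 61.4 RPKM and was higher in the sacral library in 3 of 10 donors. Of its 3 genes, *Pnmt*, which makes adrenaline, had 0 reads in 17 of 20 libraries and at most 4, so the sum came from the granins *Chga* and *Chgb*, which neurons also make.

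The sum of the autonomic ganglion list stayed low but leaned to the sacral side. It ran from 5.28 to 6.76 RPKM in lumbar and from 5.78 to 10.8 RPKM in sacral libraries, higher in the sacral library in 9 of 10 donors. Of its 9 genes, 6 never exceeded 1 RPKM in any library, and *Slc18a2* and *Slc5a7* together made up most of the sum. These were the 2 genes tested, and *Slc5a7* alone was higher (1.05 ± 0.18, against 0.08 ± 0.09 for *Slc18a2*). Among the low genes *Slc6a2* leaned to the sacral side and *Slc18a1* to the lumbar side, neither past the threshold in the main fit. The lean of the sum is thus not a shared move of the list. *Hand1*, a factor of sympathetic neurons, had 0 reads in 13 libraries and at most 4. Other cell types moved with level as well: fibroblast and mesenchyme markers were higher in the sacral library in 9 of 10 donors, from 147.8 to 373 RPKM in lumbar and 225 to 531 RPKM in sacral libraries, with 3 of 6 tested genes higher. Schwann and satellite glia markers were lower in 9 of 10 donors, with 4 of 7 genes lower. The T cell and mast cell markers were higher in the sacral library in 10 of 10 donors, at 14.7 to 24.0 RPKM in lumbar and 17.1 to 40.9 RPKM in sacral libraries. Of that list 2 genes were tested and 0 passed. Spinal motor neuron and spinal cord markers were low but higher in the sacral library in 9 of 10 donors, with medians of 0.254 RPKM in lumbar and 0.494 RPKM in sacral libraries and at most 1.99 RPKM. None of the 7 spinal genes reached the 1 RPKM needed for the limma test. The part of these cell types in the results above was not tested.

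Across the wider pathways, 49 genes in 5 lists, 28 were tested and 6 passed (21.4%, against 6.35% of all genes), 4 higher and 2 lower in sacral ganglia. The median difference was -0.0033 over the 28 and -0.0426 over all genes tested. The lists were drawn up with earlier results of these data known, so the higher share is no test of the pathways. None of the 2 tested autonomic transcription factors of 11 listed passed. Of the 2, *Sox11*, which supports growth of young neurons, had the smaller difference, 0.22 ± 0.15 (limma adjusted p = 0.364). The other was higher in sacral ganglia by 1.05 in log2 RPKM and did not pass.

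Of catecholamine handling, 9 of 14 genes were tested and 1 was higher: *Maob*, a monoamine-degrading enzyme, by 0.79 ± 0.18 (1.65 against 2.91 RPKM, adjusted p = 0.0155). Of acetylcholine handling, 4 of 5 were tested and *Slc5a7* alone passed, while *Ache*, which breaks acetylcholine down, had 8.19 and 8.34 RPKM (difference 0.02 ± 0.18, adjusted p = 0.953).

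Of autonomic peptides and their receptors, 5 of 7 were tested and 2 were higher. *Penk*, the enkephalin precursor, rose from 7.24 to 14.9 RPKM (1.08 ± 0.11, adjusted p = 8.1e-06), and *Adcyap1r1*, the receptor for the peptide PACAP, from 0.956 to 1.83 RPKM (0.96 ± 0.19, adjusted p = 0.00624), each in 10 of 10 donors. Of the receptors for *Vip*, *Vipr2* held 0.597 ± 0.411 RPKM in lumbar and 0.969 ± 0.902 RPKM in sacral ganglia, with 8 of 10 donors higher and a difference that did not pass (0.66 ± 0.33, adjusted p = 0.232), and *Vipr1* had 0 reads in 16 libraries.

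Of nitric oxide and cGMP genes, 8 of 12 were tested and 2 were lower. *Dynll1*, a dynein light chain that binds nNOS, fell from 26.7 to 20.2 RPKM (-0.40 ± 0.08, adjusted p = 0.00568), and *Prkg2*, a cGMP-dependent kinase, from 1.86 to 1.23 RPKM (-0.68 ± 0.17, adjusted p = 0.0235). *Prkg2* was lower in 10 of 10 donors, as were 1.89% of genes tested. *Nos3*, the endothelial synthase, held 0.525 and 0.493 RPKM, and *Nos2*, the inducible one, at most 18 reads.

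The genes whose log2 RPKM followed *Th* most closely over the 20 libraries were *Gatad1* (r = 0.93), *Aqp1* (0.91) and *Tbx3* (0.91). For *Nos1* they were *Scrt2* (0.94), *Cplx1* (0.93) and *Gm16596* (0.93). *Scrt2* also differed by level in the same direction as *Nos1*, by -0.57 (adjusted p = 0.0399). Among the autonomic genes, *Th* had r = 0.72 with *Slc5a7*, 0.52 with *Slc18a2* and -0.09 with *Dbh*, the next enzyme of its pathway. These likenesses are a description over libraries that share levels and donors.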

How the data were processed

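RNA of 20 libraries was amplified to cDNA and sequenced. Per the labels and the study's methods, the authors aligned reads to mm9 with Subread, kept unique reads, counted them per Ensembl gene with featureCounts (strand use not stated), applied TMM scaling and voom, and deposited log2 RPKM values; blanks are genes without reads. Here reads were recovered with GENCODE M1 exon lengths (98.43% of values within 0.05 of a whole read), and a blank was set to 0.5 reads. Differences were tested with limma 3.58.1 (R 4.3.3, statmod 1.5.0) on log2 RPKM, with a mean for each of 4 groups and a mean-variance trend; p-values are two-sided, adjusted by Benjamini-Hochberg across every tested gene, and called at 0.05. The donor block pairs the libraries of 1 embryo, as the labels give it (consensus correlation 0.337). Nothing says whether embryos shared a litter. The fit was tested on simulated data.

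Genes needed a mean of 1 RPKM in 1 group; members below it came from a fit without this filter, and no fold is given where over 10 libraries held 3 reads or fewer, a rule set after the data were seen. All members, 3 defining autonomic genes, pathway genes past the threshold and the 3 genes most correlated with each tested member are named; Slc18a1, Pnmt, Hand1, Sox11, Ache, Vipr1, Vipr2, Chga, Chgb, Nos2 and Nos3 were added after their values were seen, and some marker genes that enter the sums and counts are not reported here. The members and lists were chosen with earlier results of these data known. Correlations used 100000 permutations, two-sided. The alternatives were the block, filter, pseudocount, blank value, scaling, voom, array weights, mitochondrial rRNA share and each donor left out.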

Additional observations from a re-analysis of the deposited data

How the results depend on the processing

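The donor pairing and single donors moved the counts of genes past the threshold. The main count for the level difference was 966, against 150 with no replicate block, 507 with no filter, 2914 with array weights and 1571 without F3, F8 and M7 (chosen after seeing the data), and 399 to 1579 when 1 donor was left out. For the level difference in males the count was 67, against 21 with no replicate block, 30 with the replicate block as fixed donor effects, 283 with array weights, 101 without F3, F8 and M7 and 22 to 134 without 1 donor. In females it was 117, against 16 with no replicate block, 48 with no filter, 1734 with array weights, 750 without F3, F8 and M7 and 29 to 683 without 1 donor. Between the sexes in lumbar ganglia it was 46, against 86 with quantile normalization, 9 with voom on recovered reads, 174 with array weights, 209 with the mitochondrial rRNA share as covariate, 11 without F3, F8 and M7 and 19 to 81 without 1 donor. In sacral ganglia it was 138, against 331, 12, 701, 684 and 28 in the same order and 56 to 453 without 1 donor. The interaction had 0 genes, and 1 without F3, F8 and M7. The cause of these moves was not tested.

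Of the members tested, 0 passed for the level difference. The count was 1, Nos1, with log2(RPKM + 1), array weights, the mitochondrial rRNA share as covariate and without F3, F8 and M7, and 0 to 1 without 1 donor (1 without F3 or F8). In females alone it was 1 with array weights and without F3, F8 and M7, and 0 to 1 without 1 donor (1 without F8). Th, Nos1, Vip, Dbh and Gata3 kept their direction under every alternative run, 22 to 24 each. With no replicate block the adjusted p was 0.205 for Nos1, 0.166 for Vip and 0.0328 for Slc5a7. Vip also passed with blanks at 1 read (adjusted p = 0.0496) and with array weights (0.0197), as Slc6a2 did with array weights (0.0435). Fixed donor effects cannot give the sex differences, and were not run for them. At 0 to 16 reads per library, depth limits Phox2a, Hand2 and Chat: a level difference in them was not detectable here.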
